A study of Mus musculus with 34 samples.

Results

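Cytosolic ribosomal protein genes were taken as all rows of the gene table whose symbol is Rpl or Rps with a number and at most a short ending such as a, x or l, together with the stalk genes Rplp0 to Rplp2 and Rpsa. Ribosomal S6 kinases and names marked as pseudogenes were left out. The rule found 82 of the 13108 rows, 50 for the large (60S) and 32 for the small (40S) subunit. It did not use measured values. A few ribosomal proteins carry other names (Rps3a1, Fau, Rack1, Rpl36al, Rps27rt) and were kept as a separate list.

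The libraries came from haematopoietic stem cells (HSCs) sorted as LSK CD48-CD150+ from C57BL/6 mice, 100 cells per library, with polyadenylated RNA amplified by SMART-Seq2 and 2 libraries per mouse. All mice carried the floxed Ythdf2 allele on both chromosomes, with loxP sites around exon 2 and a GFP sequence joined to the start of the coding region. CKO mice were Ythdf2 fl/fl;Vav-iCre, in which Cre is made from the Vav promoter in all blood cells, and CTL mice were Ythdf2 fl/fl without Cre. Young mice (4 CTL, 4 CKO, 8 to 12 weeks old by the study's figure legends) and 1-year-old mice (4 CTL, 5 CKO) were compared. The mouse, not the library, was the replicate. YTHDF2 is a reader of N6-methyladenosine (m6A) that brings methylated mRNAs to decay. The questions were whether ribosomal protein mRNAs differed between CKO and CTL HSCs at each age, and between the ages within each genotype.

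A mammalian ribosome holds 1 copy of nearly every ribosomal protein, so the mRNAs for these proteins are made and translated in a coordinated way. Most of them begin with a 5′ terminal oligopyrimidine (TOP) tract, a C at the first base followed by a run of C and T, through which LARP1 and the mTORC1 kinase control their translation. HSCs are known for a low rate of protein synthesis, and loss of 1 copy of several ribosomal protein genes causes Diamond-Blackfan anaemia, a failure of red cell production.

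Sequences around the transcription start are shown for members that the results turn on, to show the tract and the members that lack one in this window. Each runs 5′ to 3′ on the gene's strand from 10 bases before to 20 bases after the start annotated by RefSeq (GRCm38.p6), with a run of a C and at least 4 pyrimidines in capitals, taken from the C nearest to the start within 5 bases. Pyrimidines that continue such a run before this C, as in Rps6, Rpl35 and Rps27, stay in lower case.
Rps6 (chr4:86857348-86857377, minus strand): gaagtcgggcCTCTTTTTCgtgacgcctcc
Rpl35 (chr2:39005112-39005141, minus strand): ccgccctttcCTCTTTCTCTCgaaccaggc
Rps27 (chr3:90213629-90213658, minus strand): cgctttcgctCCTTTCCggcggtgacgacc
Rps27l, the first of 2 start entries (chr9:66946076-66946105, plus strand): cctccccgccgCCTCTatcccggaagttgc
Rpl22, the first of 2 start entries (chr4:152325716-152325745, plus strand): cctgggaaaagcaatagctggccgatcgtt
Rpl22l1 (chr3:28805498-28805527, plus strand): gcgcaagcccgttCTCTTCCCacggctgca
Rpl39 (chrX:37085203-37085232, minus strand): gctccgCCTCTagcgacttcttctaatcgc
Rpl7l1 (chr17:46782637-46782666, minus strand): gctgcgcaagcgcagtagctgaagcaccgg

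RefSeq held 72 start entries for 61 of the 82 members. A C followed by 4 pyrimidines began exactly at the annotated start in 14 of the 72 (19.4%) and in 2.51% of all 32851 entries. It began within 5 bases of the start in 32 of the 72 (44.4%) and in 18.35% of all entries. Within the window from 250 bases before to 50 after the start, searched on both strands, CCGGAAG (a core of ETS-family sites) was found in 26 of 72 entries (36.1%; 8.86% of all), AAGATGGC (a core of the YY1 motif) in 8 (11.1%; 2.75% of all) and CTTTTC in 19 (26.4%; 21.8% of all). CCGGAAG and AAGATGGC can overlap in a shared AAG. Examples of CCGGAAG are shown with the match in capitals, as each stands on the gene's strand, because many members shared it.
Rps6 (chr4:86857440-86857469, minus strand): ttaatctacgcCCGGAAGtaacgcccctct
Rps21 (chr2:180257342-180257371, plus strand): agtaccctgacCCGGAAGcacttaccgagg
Rpl37 (chr15:5116579-5116608, plus strand): accaagacccgCCGGAAGtagtttcctggg

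Of the members, 80 passed the filter on low counts in each fit, 48 large-subunit and 32 small-subunit genes. Rpl32l and Rpl39l did not pass and stayed between 0 and 3.2 CPM in each of the 17 mice. CPM, the counts of a gene scaled to a common library size, are all on 1 scale over the 17 mice, normalised by trimmed mean of M values (TMM). Rpl32l and Rps4l are annotated as pseudogenes in GENCODE vM21 although their names follow the rule. Total counts per mouse ran from 2218618 (1-year CTL 99, which kept 1 library) to 10125624 (1-year CKO 81). Libraries had no molecular identifiers, so replicate spread, not counting error, was used throughout.

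The labels of 2 mice of the 1-year set went against the level of the deleted gene. Ythdf2 was 188 CPM in the mouse labelled CKO 121, against 72.4 to 87.8 CPM in the other 4 1-year CKO mice. It was 70.5 CPM in the mouse labelled CTL 124, against 142 to 179 CPM in the other 3 1-year CTL mice. In young mice it was 93.4 to 123 CPM in CTL and 50.3 to 60.3 CPM in CKO. Reads from exons outside the deleted one are part of these counts. HSC markers were present in all mice (12 of 12 in the table). They summed to 1493 to 1871 CPM in young CTL, 1982 to 2360 in young CKO, 1903 to 3115 in 1-year CTL and 2144 to 2836 in 1-year CKO mice. Markers of other lineages were also measured in all groups: over the 17 mice the myeloid list (10 of 11 in the table) summed to 569 to 1263 CPM, the erythroid list (8 of 10) to 76.8 to 186 CPM, the B cell list (4 of 7, with Ms4a1 at 0) to 32.5 to 154 CPM and the T cell list (2 of 6) to 7.46 to 37.4 CPM. The B cell list summed to 81.1 to 99.4 CPM in young CTL, 90.8 to 154 in young CKO, 32.5 to 77.7 in 1-year CTL and 56.1 to 104 in 1-year CKO mice. The T cell list summed to 7.46 to 22.2 CPM in young CKO and 28.995 to 36.3 CPM in 1-year CKO mice, without overlap. In CTL the T cell list summed to 8.71 to 34.1 CPM in young and 21.0 to 37.4 CPM in 1-year mice, with overlap. Megakaryocyte and platelet markers (7 of 9 in the table) summed to 543 to 901 CPM in young CTL, 1031 to 3204 in young CKO, 407 to 616 in 1-year CTL and 588 to 2128 in 1-year CKO mice. Cd48 and Flt3, both low in HSCs, summed to 84.6 to 116, 116 to 146, 21.0 to 120 and 13.8 to 54.0 CPM in the same order. Cd48 alone was 53.9 to 106 CPM in young and 0.629 to 28.2 CPM in 1-year mice, without overlap. The highest 1-year CTL sum was that of mouse 114. Flt3 was 103 CPM in it and 10.9 to 40.1 CPM in all other mice, and Mpo was 80.8 against 0 to 17.6 CPM. The part of these markers in the results below was not tested. In sorted bulk cells, fewer cells of a type and less RNA per cell cannot be told apart.

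The members together took a larger share of all counts in some mice than in others. Young CTL mice 1 to 4 gave 5.22%, 5.24%, 4.95% and 5.27%, a mean of 5.17% ± 0.147 (SD, n = 4). Young CKO mice 1 to 4 gave 3.92%, 5.14%, 4.75% and 4.46%, a mean of 4.57% ± 0.513 (n = 4). Among young mice the groups overlapped, since CKO 2 lay above CTL 3, and CKO 1 was the lowest. In 1-year CTL mice the share was 5.32% (114), 6.48% (124), 3.66% (65) and 3.19% (99), a mean of 4.66% ± 1.52 (n = 4). The 1-year CKO mice gave 3.61% (121), 3.94% (122), 3.75% (78), 3.68% (81) and 3.80% (94), a mean of 3.75% ± 0.125 (n = 5), inside the range of the CTL mice. Without the mouse labelled CTL 124, the 1-year CTL mean was 4.06%. The 2 libraries of a mouse differed by a median of 0.594 percentage points (0.0503 to 1.66, 16 mice).

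**Figure D1:**
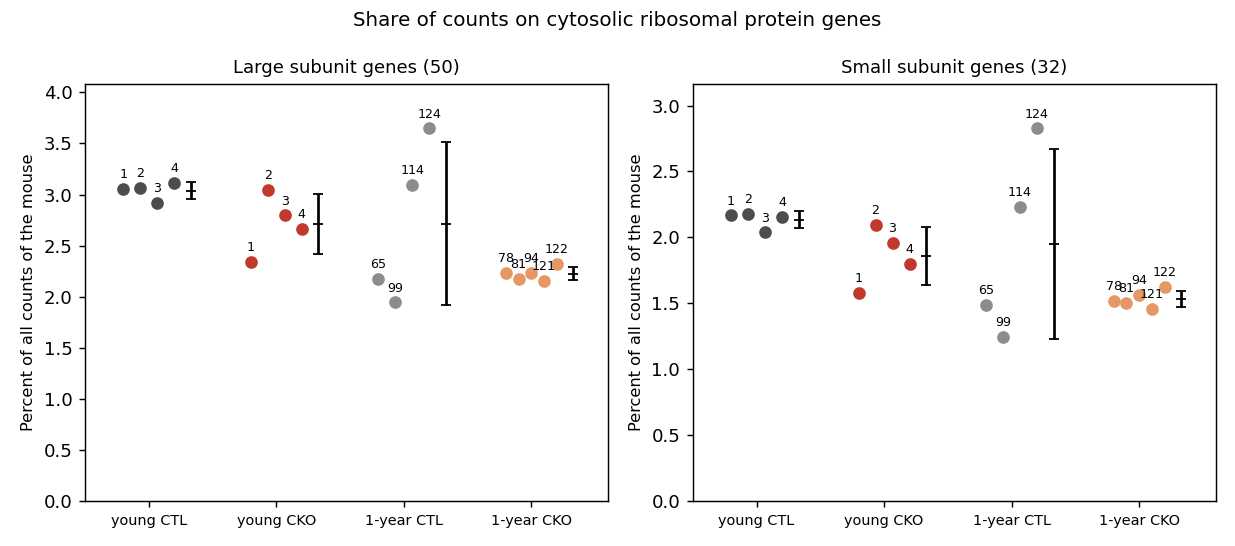
Share of all counts (percent, vertical axis) in the 50 large-subunit genes and, in a second panel, in the 32 small-subunit genes. Each point is a mouse, by group, with the group mean and SD. Large-subunit shares ran from 1.94% to 3.65% in 1-year CTL and from 2.15% to 2.32% in 1-year CKO mice. Small-subunit shares ran from 1.24% to 2.83% and from 1.46% to 1.62%.

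The balance between the subunits varied less than the share. Counts in large-subunit genes divided by those in small-subunit genes gave 1.43 ± 0.018 in young CTL, 1.46 ± 0.026 in young CKO, 1.43 ± 0.12 in 1-year CTL and 1.45 ± 0.022 in 1-year CKO mice (SD over mice). Among 1-year CTL mice it ran from 1.29 in the mouse labelled 124 to 1.56 in mouse 99.

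In 1-year CTL and young CKO mice, most members were highest in the same mouse and lowest in the same mouse. Of the 80 members tested, 70 (87.5%) were highest among 1-year CTL mice in the one labelled 124, against 33.0% of all 12352 genes, and 74 (92.5%; 27.9% of all genes) were lowest in mouse 99, the mouse with the fewest counts. Among young CKO mice, 72 members were lowest in mouse 1 (90%; 24.4% of all genes) and 60 were highest in mouse 2 (75%; 20.8% of all genes). Y-linked Eif2s3y was detected among 1-year CTL mice only in mouse 99, and among young CKO mice only in mouse 1. In the other groups fewer members shared an extreme mouse. Among young CTL mice, 45 were highest in mouse 4 (56.3%; 26.4% of all genes) and 45 lowest in mouse 3 (23.7% of all genes). Among 1-year CKO mice, 35 were highest in mouse 122 (43.8%; 19.6% of all genes) and 27 lowest in the mouse labelled 121 (33.8%; 27.3% of all genes). The median SD of a member's log2(CPM + 1) between mice was 0.10 in young CTL, 0.23 in young CKO, 0.59 in 1-year CTL and 0.12 in 1-year CKO. Over all genes it was 0.32, 0.38, 0.55 and 0.35, and over genes at least as high as the lowest member other than Rps4l it was 0.16, 0.23, 0.35 and 0.22. Members of 1 mouse come from the same libraries and are not independent replicates.

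**Figure D2:**
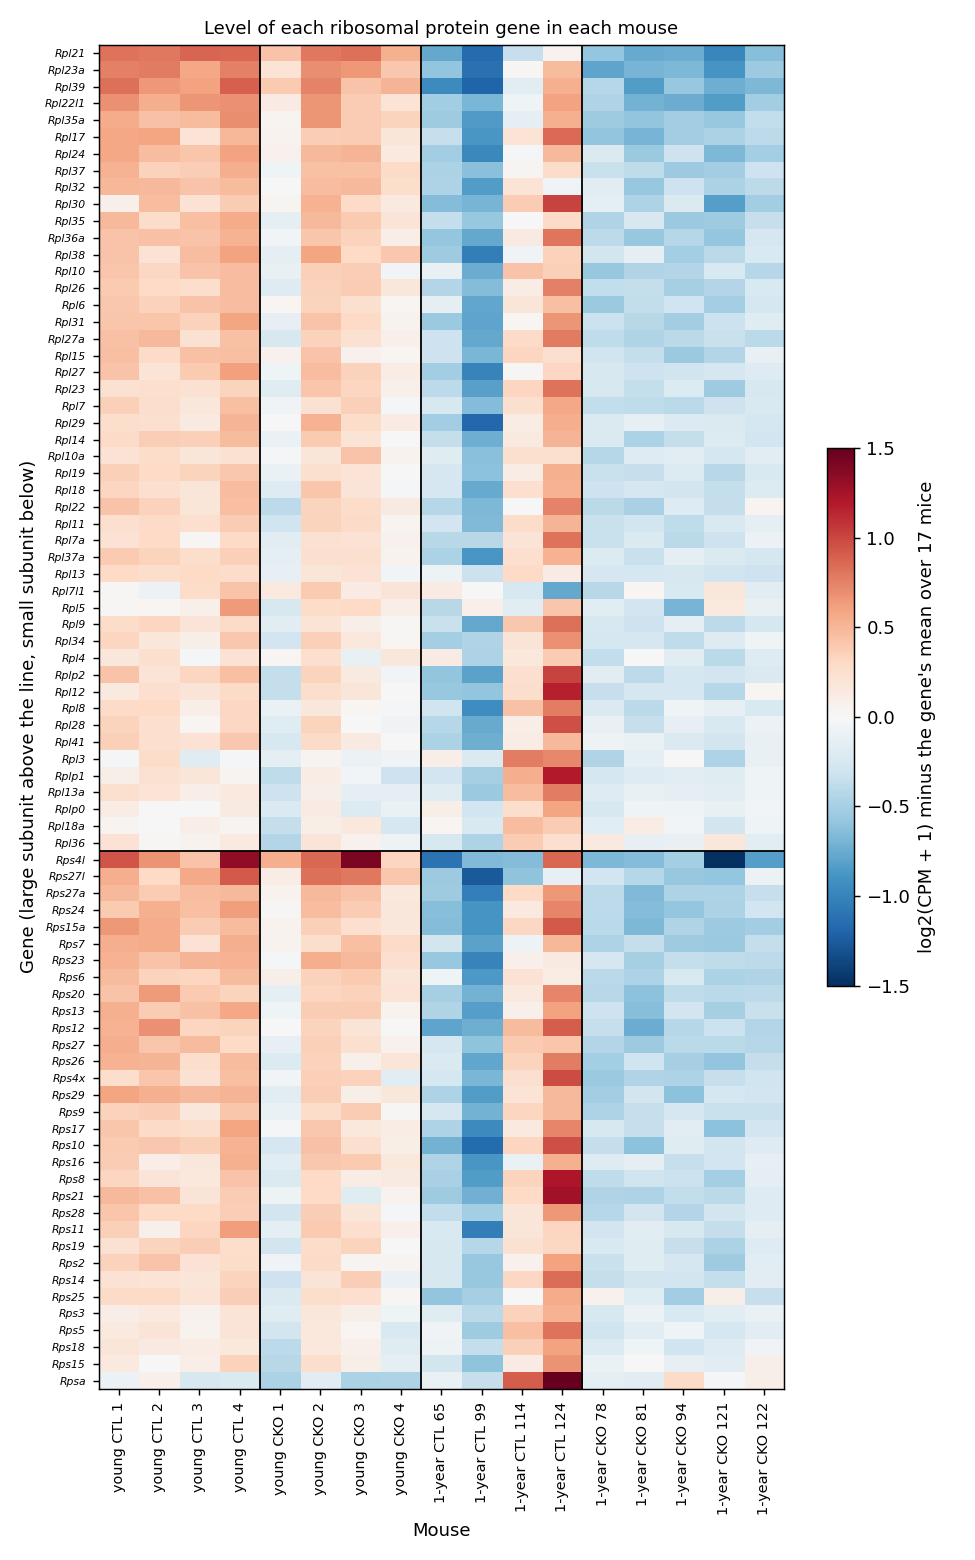
Level of each of the 80 tested members (rows; large-subunit genes above the line, small-subunit genes below) in each of 17 mice (columns, by group), as log2(CPM + 1) minus the gene's mean over the mice; rows are ordered by the fold change between 1-year and young CKO mice and colours stop at ±1.5. The column of 1-year CTL 124 is high and that of CTL 99 low in most rows.

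Levels between members were compared only as CPM per kilobase, with the union of a gene's exons as its length. The median over 80 members was 249 CPM per kilobase (middle 50% of members 148 to 468), and 48 lay within 2-fold of it. The highest were Rpl36 (1447 ± 228, SD over 17 mice), Rplp1 (1264 ± 445), an acidic protein of the stalk that recruits translation factors, and Rpl32 (1253 ± 367). The lowest were Rps24 (56.0 ± 19.2), which takes part in pre-rRNA processing, Rps15a (51.1 ± 18.95) and Rps4l (25.6 ± 16.2). In this order, 2 pairs of neighbours were further apart than 1 SD. The order was taken over all 17 mice, and that of the highest members was not the same in each group. Between young and 1-year CTL mice, mean CPM went from 1602 to 981 for Rpl32, from 665 to 796 for Rplp1 and from 590 to 557 for Rpl36. With the length of 1 principal transcript per gene instead, the median was 599 CPM per kilobase over 79 members, Rpl32 was at 2335 and Rps24 at 217. The Spearman correlation of both orders was 0.81 over members that share these libraries.

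For CKO against CTL HSCs of young mice, most members had somewhat lower levels in CKO, and none passed the test. Of 80 members, 79 had a log2 fold change below 0 (50.1% of all 11526 genes tested), with a median of -0.20 (all genes -0.00093), and the middle 50% of members lay between -0.24 and -0.16. The medians were -0.19 for the large and -0.20 for the small subunit. No member was called by edgeR's quasi-likelihood test after Benjamini-Hochberg adjustment over all genes, where 0.130% of all genes were called higher and 0.0434% lower. At an unadjusted p under 0.05, 7 members were lower and 0 higher (2.80% and 4.26% of all genes). DESeq2, limma voom and edgeR's likelihood ratio test over mice called 0 members too, among 77, 12 and 67 genes called. In 0 members did all CKO mice lie above all CTL mice (2.68% of all genes), and in 9 all CKO mice lay below all CTL mice (2.09% of all genes): Rps29, Rps15a, Rpl13a, Rps13, Rpl19, Rpl6, Rpl13, Rpl37a and Rpl36a. Since the members share their libraries, these counts are not 80 separate observations. Without CKO 1, 70 of 80 were below 0 and the median was -0.11. It was -0.12 with B libraries and -0.29 with A libraries alone. Y-linked genes were detected in 3 of 4 CTL and 1 of 4 CKO mice, and with their level as a covariate the median was -0.32. The summed level of 6 cell cycle genes was 741 to 1173 CPM in CKO and 880 to 1578 CPM in CTL mice, with overlap, and its part in the result was not tested.

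Rps29, a zinc-binding protein of the 40S head and a Diamond-Blackfan anaemia gene (GRCm38, chr12:69157722-69159186), had the smallest p in young mice. It was at 434, 630, 518 and 547 CPM in CKO mice 1 to 4 and at 738, 704, 681 and 696 CPM in CTL mice 1 to 4. All CKO mice lay below all CTL mice, and the log2 fold change was -0.40 (SE 0.13, adjusted p = 0.440; 95% interval -0.66 to -0.14; exact two-sided permutation p = 0.0286 over 4 against 4 mice, the smallest this design can give). Rps15a, a 40S protein, was 347 ± 30.8 CPM in CKO and 430 ± 34.0 in CTL (SD, n = 4 each; log2 fold change -0.31, edgeR adjusted p = 0.620), without overlap. Rpl13a, which is also known as part of a complex that silences interferon-induced mRNAs, was 473 ± 54.7 and 581 ± 26.2 CPM (-0.29, edgeR adjusted p = 0.640), again without overlap. Rps21 (186 ± 27.5 and 237 ± 20.3 CPM; -0.35, edgeR adjusted p = 0.629) and Rps26, which lies at the mRNA exit channel (324 ± 50.9 and 409 ± 33.2 CPM; -0.33, edgeR adjusted p = 0.645), overlapped between the groups. The only member above 0 in young mice was Rpl7l1, a paralog of Rpl7 linked to ribosome assembly, at 0.051 (95% interval -0.23 to 0.33), and it was below 0 with Y-linked genes as a covariate (-0.048).

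**Figure D3:**
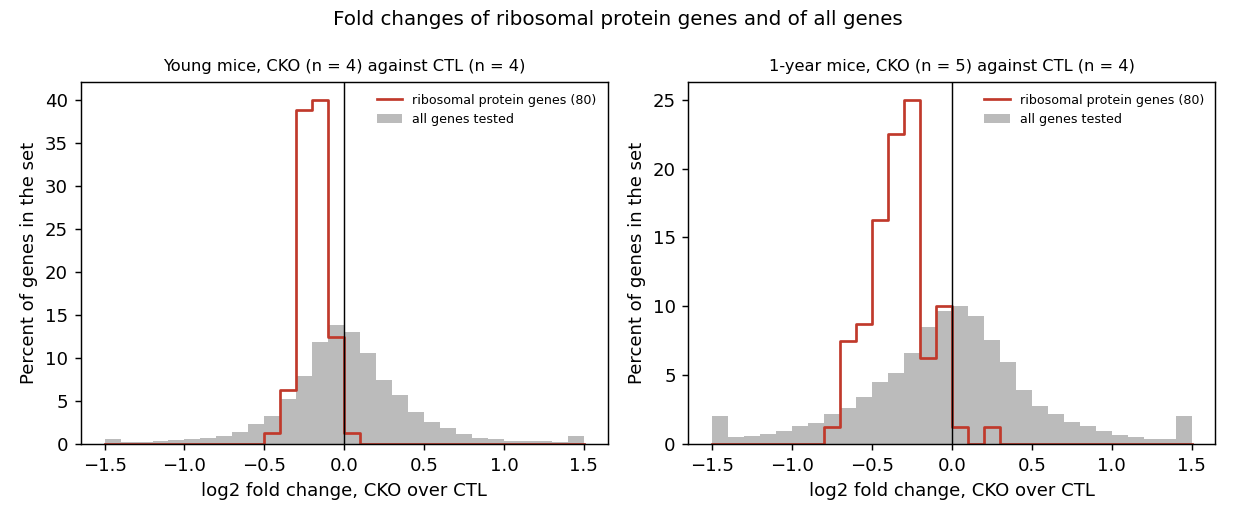
Distribution of log2 fold changes of CKO against CTL (horizontal axis, bins of 0.1; values beyond ±1.5 stand in the end bins) for ribosomal protein genes and for all genes tested, in young and in 1-year mice. The members' medians were -0.20 and -0.33, those of all genes -0.00093 and -0.0033.

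For CKO against CTL HSCs of 1-year mice, 78 of 80 members had a log2 fold change below 0 (50.3% of all 11961 genes), with a median of -0.33 (all genes -0.0033; large subunit -0.29, small subunit -0.37). No gene of any kind was called (0% higher, 0% lower) by edgeR's quasi-likelihood test. The same test called 1 gene without CTL 65, 16 without the mouse labelled CKO 121, 40 without both mice whose labels went against Ythdf2 and 5 with all 17 mice in 1 fit, with 0 members among them. With each library as a replicate it called 130 genes, 1 of them a member. At an unadjusted p under 0.05, 7 members were lower (5.65% of all genes) and 0 higher (4.45%). Over the same mice DESeq2 called 104 genes and edgeR's likelihood ratio test 76, with 0 members in either. In 0 members did the groups separate (1.70% of all genes separated with CKO lower and 1.78% with CKO higher). The value rested on 1 mouse: without the mouse labelled CTL 124, 61 of 81 members were below 0 and the median was -0.096, and without both mice whose labels went against Ythdf2 it was -0.084, with 58 below 0. Without CTL 99 the median was -0.53. The summed level of 6 cell cycle genes was 1691 CPM in the mouse labelled CTL 124 and 562 to 1101 CPM in the other 1-year mice, and its part in the result was not tested.

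Rpl3, a 60S protein next to the peptidyl transferase centre (chr15:80077781-80083406), had the smallest p in 1-year mice. The 1-year CKO mice had 434 (121), 553 (122), 436 (78), 541 (81) and 595 (94) CPM, and the CTL mice 1012 (114), 981 (124), 641 (65) and 512 (99) CPM. CTL 114 and 124 were the highest and CTL 99 lay among the CKO mice, and the log2 fold change was -0.61 (SE 0.21, edgeR adjusted p = 0.387; exact two-sided permutation p = 0.0556 over 5 against 4 mice, where the smallest possible is 0.00794). Rps27 was 356 ± 14.1 CPM in CKO and 503 ± 166 in CTL mice (-0.49, edgeR adjusted p = 0.435), and Rps4x, the X-linked copy of a 40S protein, was 407 ± 29.1 and 629 ± 323 CPM (-0.61, edgeR adjusted p = 0.444). Rps26 (-0.58, edgeR adjusted p = 0.447) and Rpl17 (-0.62, edgeR adjusted p = 0.453) followed, both with overlapping groups. Without the mouse labelled CTL 124, the log2 fold change was -0.24 for Rps4x, -0.31 for Rps26 and -0.27 for Rpl17. The members above 0 were Rps27l, a paralog of Rps27 and a p53 target, at 0.21 (95% interval -0.19 to 0.61) and Rpl7l1 at 0.077 (-0.32 to 0.47; -0.088 without the mouse labelled CTL 124).

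Whether the CKO effect differed between the ages was asked with an interaction term over all 17 mice. Of 80 members, 66 had a difference below 0 (51.9% of 12352 genes), the median was -0.14 (all genes -0.020), and 0 members and 0 genes were called by edgeR's quasi-likelihood test. At an unadjusted p under 0.05, 1 member was below 0 and 0 above (2.70% and 2.06% of all genes), and DESeq2 and limma voom called 0 members. The 1 member was Rpl3 (difference -0.54, SE 0.26, edgeR adjusted p = 0.999). Without the mouse labelled CTL 124 the median difference was 0.11, and with Y-linked genes as a covariate it was 0.017.

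By structural group, the 18 members tied to Diamond-Blackfan anaemia were all below 0 at both ages, with medians of -0.21 (young) and -0.31 (1 year), and 0 called. The 3 stalk proteins Rplp0, Rplp1 and Rplp2 had medians of -0.28 and -0.40. For Rpl5 and Rpl11, which travel with 5S rRNA and can bind MDM2, the medians were -0.13 and -0.25. The 9 proteins around the exit of the nascent chain tunnel had medians of -0.22 and -0.30. These medians lay near those of all members.

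Between 1-year and young CTL HSCs, 13 members fell and 1 rose by edgeR's quasi-likelihood test after Benjamini-Hochberg adjustment, while 71 of 80 were below 0 (44.1% of 12352 genes). Of all genes, 8.07% were called lower and 6.70% higher. The members' median was -0.33 (all genes 0.11). It was -0.61 without the mouse labelled CTL 124, -0.22 without CTL 65 and -0.17 without CTL 99, with 77, 61 and 57 members below 0. In 9 members all 1-year mice lay below all young mice (10% of all genes) and in 0 above (7.11%). At an unadjusted p under 0.05, 25 members were lower and 1 higher (14.3% and 15.6% of all genes). The young and 1-year samples were separate sets by their labels, so age and sample set cannot be told apart. The sexes were not balanced either: Y-linked Eif2s3y was 123 to 146 CPM in young CTL 1 to 3 and 0 in young CTL 4. At 1 year it was 48.7 CPM in CTL 99 and 0 in the other CTL mice. Other genes with transcripts as short as those of 9 in 10 members (345 to 1394 bases, 1619 genes) had a median of -0.42 in this comparison, 77.5% of them below 0. Transcript length was not part of the fit, and its part in the result was not tested. The count of members called was 48 without the mouse labelled CTL 124 and 47 without both mice whose labels went against Ythdf2. It was 7 without 1-year CTL 65, 1-year CTL 99 or young CTL 3, and 6 without young CTL 1 or 4. The number of all genes called in each of these fits is not given here, so these counts do not show a shift particular to members. Rpl21, Rps27l, Rpl39, Rpl32, Rpl23a and Rps23 kept their call in all 17 fits that left out 1 mouse and in all 13 other alternatives, and were the only members called without young CTL 1 or without young CTL 4. Of the other members with the smallest p, Rpl22l1 and Rpl35a lost their call in 6 of these 17 fits, Rpl35 in 5 and Rpl37 in 4.

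Between 1-year and young CKO HSCs, 25 members fell and 0 rose (9.34% and 7.21% of all genes), and 78 of 80 were below 0 (46.0% of all genes). The median was -0.46 (all genes 0.070; genes as short as 9 in 10 members -0.37, with 75.5% below 0). In 48 members all 1-year CKO mice lay below all young CKO mice (11.3% of all genes) and in 0 above (9.07%). At an unadjusted p under 0.05, 49 members were lower and 0 higher (15.4% and 14.7% of all genes). Of the members that fell, 12 fell in both genotypes, which is 92.3% of the 13 in CTL and 48.0% of the 25 in CKO. Over all genes, 677 fell in both, which is 67.9% of the 997 in CTL and 58.7% of the 1154 in CKO. No test of this overlap was made. Whether the change differed by genotype is the interaction given above, in which 0 members were called. The count of members called in CKO was 12 without young CKO 2, 13 without young CKO 3, 16 without 1-year CKO 81, 40 without 1-year CTL 99 and 44 without the mouse labelled CTL 124. For these fits too, the number of all genes called is not given here. All 17 mice enter 1 fit, and the cause of these changes was not tested. The 10 members with the smallest p kept their call in all 17 fits that left out 1 mouse and in all 13 other alternatives. The Spearman correlation of GC content with the log2 fold change was 0.30 (CTL) and 0.46 (CKO) over 79 members and 0.36 and 0.46 over 11097 genes, across genes that share libraries. Its part in the results was not tested, nor was that of the summed cell cycle genes, at 562 to 1691 CPM in 1-year CTL and 603 to 1101 CPM in 1-year CKO mice beside the values of young mice above.

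**Figure D4:**
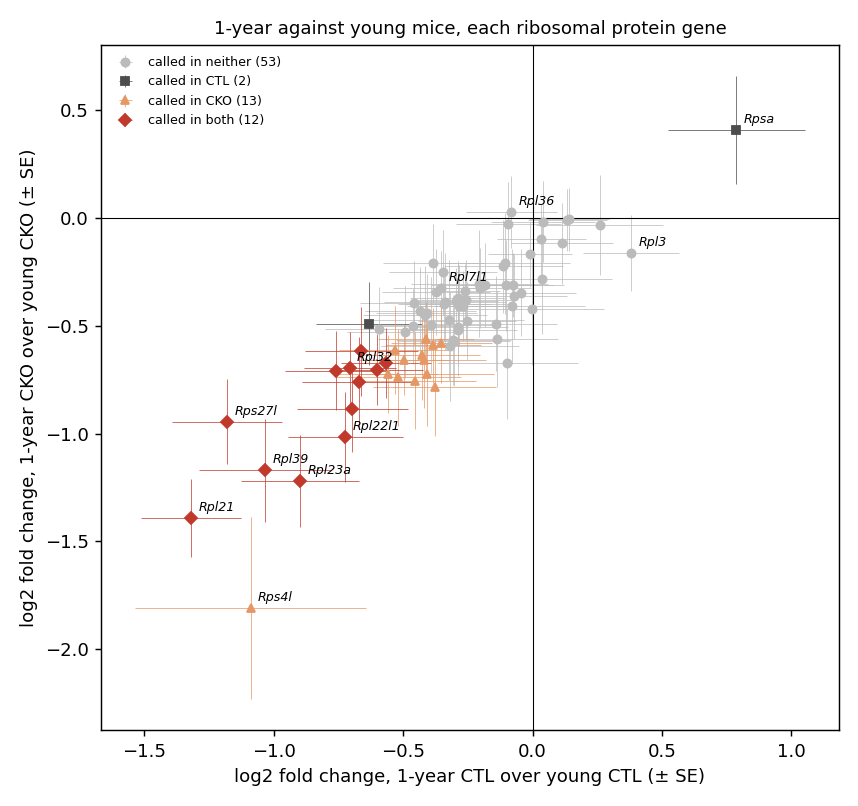
Log2 fold change between 1-year and young mice of each of 80 members, in CTL (horizontal axis) and CKO (vertical axis), with SE bars; colours mark members called in neither (53), only in CTL (2), only in CKO (13) or in both (12). Rpl21, Rpl39, Rpl23a and Rps27l lie far to the lower left.

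Rpl21, a 60S protein (chr5:146832890-146837032), had the smallest p of all members in both genotypes. It was at 777, 761, 803 and 799 CPM in young CTL mice 1 to 4 and at 345 (114), 457 (124), 257 (65) and 198 (99) CPM in 1-year CTL mice. In CKO it was at 592, 761, 782 and 637 CPM in young mice 1 to 4 and at 222 (121), 281 (122), 294 (78), 261 (81) and 263 (94) CPM at 1 year. No 1-year mouse reached the lowest young mouse of either genotype. The log2 fold change was -1.32 (SE 0.19, edgeR adjusted p = 0.000342) in CTL and -1.39 (SE 0.18, edgeR adjusted p = 0.000141) in CKO.

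Around the exit of the tunnel, 4 of 9 members fell in CTL (Rpl23a, Rpl38, Rpl35 and Rpl39) and 5 of 9 in CKO (these and Rpl17), with medians of -0.49 and -0.62 beside -0.33 and -0.46 over all members. Of all genes 8.07% and 9.34% fell, and of all members 13 and 25 of 80. Rpl39, which lines the tunnel (chrX:37082518-37085222), was 327 ± 31.4 CPM in young CTL and 159 ± 90.3 in 1-year CTL mice (log2 fold change -1.03, SE 0.26, edgeR adjusted p = 0.0108). In CKO it was 279 ± 32.1 and 124 ± 13.8 CPM (-1.17, SE 0.24, edgeR adjusted p = 0.00269), and the ages did not overlap in either genotype. Rpl23a, the docking point of the signal recognition particle (chr11:78180935-78183584), was 605 ± 37.7 and 324 ± 151 CPM in CTL (-0.90, edgeR adjusted p = 0.0128) and 520 ± 80.3 and 223 ± 19.8 CPM in CKO (-1.22, edgeR adjusted p = 0.000909). Rpl35, also a Diamond-Blackfan anaemia gene, fell by 0.57 in CTL and by 0.67 in CKO on the log2 scale.

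Of the other large-subunit members, Rpl32 was 1602 ± 33.4 CPM in young and 981 ± 301 in 1-year CTL mice (-0.71, edgeR adjusted p = 0.0120), and 1437 ± 218 and 888 ± 94.8 CPM in CKO (-0.69, edgeR adjusted p = 0.00730). Rpl37 fell by 0.60 (CTL) and by 0.70 (CKO) and Rpl35a, a Diamond-Blackfan anaemia gene, by 0.70 and by 0.89. Rpl24 and Rpl38 fell in both genotypes, Rpl27 in CTL, and Rpl6, Rpl10, Rpl17 and Rpl36a in CKO.

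Of the small-subunit members, Rps23, which forms part of the decoding centre, fell in both genotypes. It was 491 ± 15.1 and 289 ± 102 CPM in young and 1-year CTL (-0.76, edgeR adjusted p = 0.0136) and 439 ± 76.4 and 269 ± 16.1 CPM in CKO (-0.71, edgeR adjusted p = 0.0118). Rps6, the protein phosphorylated by S6 kinases, fell by 0.66 in CKO (edgeR adjusted p = 0.00879) and had -0.50 in CTL (edgeR adjusted p = 0.0567). Rps7, Rps13, Rps15a, Rps20, Rps24, Rps27 and Rps27a fell in CKO, by 0.59 (Rps27) to 0.75 (Rps27a). Among the 18 Diamond-Blackfan anaemia genes (all members: 13 of 80 fell in CTL and 25 of 80 in CKO; all genes: 8.07% and 9.34%), 3 fell in CTL (Rpl27, Rpl35 and Rpl35a) and 5 in CKO (Rps7, Rps24, Rps27, Rpl35 and Rpl35a), and all 18 were below 0 in both.

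Rpsa, a 40S protein also known as the laminin receptor (chr9:120127766-120132369), was the only member that rose. It was at 699, 781, 629 and 639 CPM in young CTL mice 1 to 4 and at 1385 (114), 2083 (124), 692 (65) and 581 (99) CPM in 1-year CTL mice. CTL 114 and 124 were high and the other 1-year mice lay within or below the young range (log2 fold change 0.79, SE 0.27, edgeR adjusted p = 0.0491). The call was lost without 114 or without 124, and was kept in 2 of 17 fits that left out 1 mouse. In CKO it was 567 ± 65.4 and 753 ± 97.3 CPM (0.41, SE 0.25, edgeR adjusted p = 0.288). The stalk gene Rplp0 had 0.13 in CTL and -0.010 in CKO, and Rplp1 had 0.26 and -0.032; in CTL both were below 0 without the mouse labelled 124 (-0.041 and -0.16).

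Members were also set against the mean log2(CPM + 1) of all tested members in the same mouse. This scale shows the order of the changes among members, and by its construction changes lie on both sides of 0. On it the change between 1-year and young mice was -0.96 (CTL) and -0.91 (CKO) for Rpl21, -0.77 and -0.69 for Rpl39, -0.59 and -0.73 for Rpl23a and -0.79 and -0.45 for Rps27l. It was 1.03 and 0.88 for Rpsa, 0.53 and 0.47 for Rplp0 and 0.53 and 0.46 for Rplp1. It was 0.76 and 0.31 for Rpl3.

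Some members have a paralog, a second gene for a related protein, and these pairs could be compared within the same mice. Rps27l (chr9:66944624-66949522) was 528 ± 95.9 CPM in young CTL and 514 ± 116 in young CKO mice, and 232 ± 71.3 and 267 ± 39.1 at 1 year. It was lower in 1-year than in young mice in both genotypes (-1.18, edgeR adjusted p = 0.00175 in CTL, and -0.95, edgeR adjusted p = 0.00314 in CKO). Here too, age and sample set cannot be told apart. Its partner Rps27 was 656 ± 46.7 CPM in young and 503 ± 166 in 1-year CTL mice (-0.38, edgeR adjusted p = 0.164), and fell by 0.59 in CKO (edgeR adjusted p = 0.0230). Rps27l was the member with the highest fold change of CKO against CTL at 1 year, while Rps27 had the second smallest p toward lower.

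Rpl22l1, whose protein can take the place of Rpl22 (chr3:28805508-28807424), was at 177, 160, 173 and 177 CPM in young CTL mice 1 to 4 and at 119, 174, 143 and 126 CPM in young CKO mice 1 to 4. At 1 year it was at 105 (114), 166 (124), 75.7 (65) and 67.7 (99) CPM in CTL and at 60.5 (121), 75.7 (122), 80.01 (78), 66.2 (81) and 64.6 (94) CPM in CKO mice. Between young and 1-year mice it fell by 0.72 in CTL (edgeR adjusted p = 0.0324) and by 1.02 in CKO (edgeR adjusted p = 0.00276), and in CKO without overlap. The call in CTL was lost in 6 of 17 fits that left out 1 mouse (1-year CTL 114, 65 or 99, or young CTL 1, 3 or 4), and the call in CKO was kept in all 17. Rpl22 itself was 227 ± 18.4 and 179 ± 83.8 CPM in CTL and 192 ± 40.2 and 147 ± 22.6 CPM in CKO mice, and was not called in either. Rpl7l1 was 302 ± 49.8, 312 ± 28.0, 237 ± 59.3 and 249 ± 39.9 CPM in young CTL, young CKO, 1-year CTL and 1-year CKO mice, and its partner Rpl7 711 ± 60.5, 631 ± 86.7, 595 ± 215 and 454 ± 21.7 CPM. Neither was called in any comparison.

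Rps4l, a processed copy of Rps4x (chr6:148354656-148355596), was low and uneven. It was at 28.9, 36.2, 53.8 and 24.6 CPM in young CKO mice 1 to 4 and at 3.16 (121), 10.6 (122), 11.8 (78), 12.1 (81) and 13.4 (94) CPM in 1-year CKO mice, and fell by 1.81 on the log2 scale (SE 0.42, edgeR adjusted p = 0.00635). In 1-year CTL mice it was at 12.1 (114), 36.3 (124), 8.50 (65) and 11.97 (99) CPM, so that the mouse labelled 124 lay at the young level. Reads of such copies can be shared with their parent gene, and the rule the authors used for reads with several matches is not given in the sources used here.

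**Figure D5:**
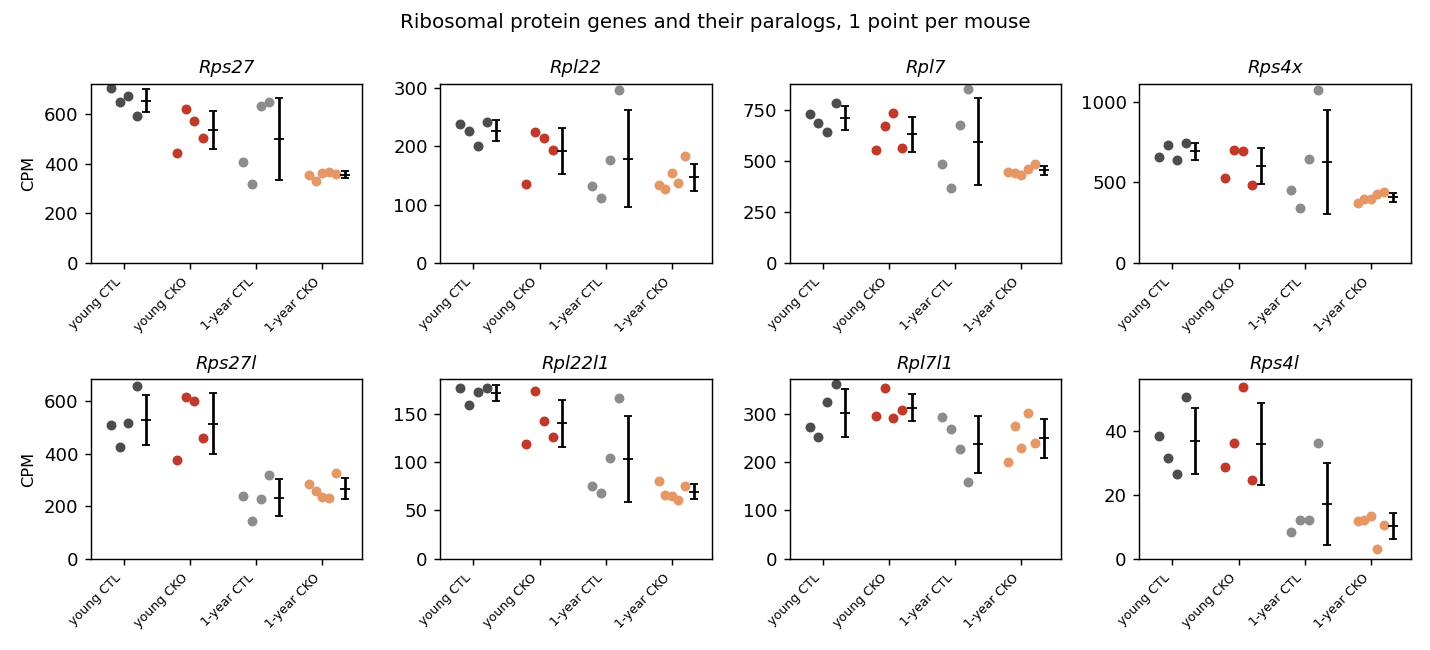
CPM of Rps27 and Rps27l, Rpl22 and Rpl22l1, Rpl7 and Rpl7l1, and Rps4x and Rps4l in each mouse by group, with mean and SD. Rps27l and Rpl22l1 were lower in 1-year than in young mice in both genotypes, while Rpl7l1 overlapped between the ages. The call of Rpl22l1 in CTL was lost in 6 of 17 fits that left out 1 mouse. The mouse labelled CTL 124 lay inside the young range for Rpl22l1.

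Most members have processed pseudogenes, and words of 50 bases from their transcripts are often found elsewhere in the annotated transcripts. Of 80 members with a transcript, 47 shared at least 50% of their words and 2 shared none. The share was 55.5% for Rpl21, 85.7% for Rpl23a, 85.6% for Rpl3, 35.8% for Rps29, 22.4% for Rps27l and 16.5% for Rpl39. The median log2 fold change of CKO against CTL was -0.20 both in the 32 members with less than 50% and in the 47 with more in young mice, and -0.29 and -0.35 at 1 year. Between the ages it was -0.30 and -0.34 in CTL and -0.39 and -0.50 in CKO.

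GGACT, the most common form of the sequence in which m6A is found, was counted on the sense strand of 1 principal transcript per gene. It was present in 49.4% of 79 members and in 91.0% of 11097 genes tested. Members were also shorter (median 761 bases against 2787), and the number per kilobase was 0.833 in members and 1.09 over all genes. In young mice the median log2 fold change was -0.19 in the 40 members without GGACT and -0.20 in the 39 with it, and at 1 year it was -0.38 and -0.30. A GGACT is not evidence of methylation at that site.

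Genes that act with the ribosomal proteins were described in the same way for CKO against CTL. Of 43 ribosome biogenesis factors, 21 were below 0 in young mice and 23 at 1 year (medians 0.027 and -0.016), and 0 were called. The 14 genes of RNA polymerase I and its factors had medians of 0.081 and -0.14, with 0 called. Of 17 other mRNAs known to begin with a TOP tract, 14 and 16 were below 0 (medians -0.12 and -0.28), with 0 called. The 5 ribosomal proteins outside the name rule had medians of -0.10 and -0.28, and 0 were called.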

How the data were processed

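RNA was sequenced from 34 libraries of 17 mice. Reads had been aligned with HISAT2 (GRCm38) and assigned to genes with Rsubread by the authors, and the values used here are the raw counts deposited for 13108 genes, of which 1 row held no counts and 20 rows had names turned into dates. The annotation, the use of strand and the rule for reads with several matches are not given in the sources used here. Library B of 1-year CTL 99 was left out, so 33 libraries entered.

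Counts of the libraries of a mouse were added, since the mouse is the replicate. The labels of the deposited set treat libraries as replicates, and that choice was run as an alternative. Each edgeR p-value sets a fold change against the spread between mice, estimated with the help of all genes. Between the ages and for the difference of the CKO effect, this spread came from all 17 mice. Genes were filtered with filterByExpr (minimum count 10, minimum total 15), scaled by TMM and tested with edgeR 4.0.16 (quasi-likelihood test, limma 3.58.1, R 4.3.3), with Benjamini-Hochberg adjustment over all genes tested and a threshold of 0.05. SE is the size of the log2 fold change over the root of the F statistic. Young and 1-year mice were fitted apart for CKO against CTL, and all 17 mice in 1 fit for the ages and the difference of the CKO effect. The fit was tested on simulated data. CPM values are on 1 TMM scale over the 17 mice, and 3 counts are 0.292 to 1.24 CPM. Log2 values per mouse used a pseudocount of 1.

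The members and lists were chosen with earlier results of these data known. Named with values are members called in a comparison (the 10 with the smallest p where more), the 5 with the smallest p in each direction, the paralogs, and the 3 highest and 3 lowest per length. Other genes are given in counts, and some further members are named from the fixed lists. 1 gene of these lists is not reported here.

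Coordinates are from GENCODE vM21 on GRCm38. Alternatives were DESeq2 1.42.0, limma voom, likelihood ratio tests, other scalings and filters, a replicate block, a Y-linked covariate, A or B libraries only and leaving out mice.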

Additional observations from a re-analysis of the deposited data

Results flagged for a closer look

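In 4 groups each of 30 members (120 pairs) and in 8 groups of shares and subunit ratios, a mouse was marked where its gap to the nearest mouse of its group, divided by the group's range, passed Dixon's 95% critical value. Chance marks about 1 in 20 groups, and 7 were marked.

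The share of counts on ribosomal protein genes was 4.95% in young CTL 3 and 5.22% to 5.27% in the other young CTL mice. In the same mouse Rpl23a was at 549 CPM, against 619 to 630 CPM in the others. Rps23 was at 469 CPM in young CTL 2 and at 497 to 499.9 CPM in the other young CTL mice. Rpsa was at 665 CPM in young CKO 2 and at 531 to 537 CPM in the other young CKO mice. Rpl35a was at 214 CPM in 1-year CKO 122 and at 183 to 192 CPM in the other 1-year CKO mice.

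Rps4l, the processed copy of Rps4x, was marked in both mice whose labels went against the level of Ythdf2. It was at 3.16 CPM in the mouse labelled CKO 121, against 10.6 to 13.4 CPM in the other 1-year CKO mice, and at 36.3 CPM in the mouse labelled CTL 124, against 8.50 to 12.1 CPM in the other 1-year CTL mice.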

How the results depend on the processing

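In young mice 0 members were called in any of 24 alternatives, and the median log2 fold change stayed between -0.32 and -0.11. In 1-year mice 10 members were lower by the likelihood ratio test and 1 by the quasi-likelihood test when each library counted as a replicate, all other alternatives 0, and the median lay between -0.54 and -0.084. For the difference of the CKO effect, 0 were called in all alternatives, and the median turned to 0.017 with Y-linked genes as a covariate and to 0.12 without the mice labelled CKO 121 and CTL 124 (leaving out 1 mouse: -0.32 to 0.11). Between the ages in CTL, 14 members were called in the reported fit, 22 with the Y-linked covariate, 47 without those 2 mice (an alternative chosen after seeing the data) and 6 to 48 with 1 mouse left out. In CKO, 25 were called, 52 and 51 with every library as a replicate (likelihood ratio and quasi-likelihood test), and 12 to 44 with 1 mouse left out. The median of all genes between the ages in CTL ranged from 0.0014 to 0.21 by scaling and test. For the counts between the ages, the number of all genes called in each alternative is not given here. The causes of these changes were not tested.

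The replicate numbers of young mice name different animals. Deviations of same-numbered mice correlated by -0.026 to 0.058, inside the -0.16 to 0.15 of differently numbered mice. This cannot show whether same-numbered mice were littermates or were handled together, and the reported fit did not pair them. With a replicate block the median was -0.21, 0 members were called, and 14 genes in place of 20.

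Of single members with small values, Rpl7l1 in young mice was -0.048 with the covariate and -0.012 with A libraries (1 mouse left out: -0.024 to 0.14). With B libraries Rps27l was 0.28 (1 mouse left out: -0.13 to 0.092) and Rps4l 0.19 (-0.30 to 0.15). At 1 year, without the 2 mice, Rpl7l1 was -0.16 (1 mouse left out: -0.088 to 0.18) and Rps4l 0.15. In the difference, without the 2 mice, Rps4l was 0.20, Rpl7l1 -0.21 (1 mouse left out: -0.12 to 0.15) and Rpl22l1 0.081 (-0.45 to 0.039). Rps25 was -0.0039 and -0.0041 with libraries as replicates in the likelihood ratio and quasi-likelihood test (1 mouse left out: -0.058 to 0.38), and with 1 mouse left out Rpl27 ran from -0.055 to 0.37 and Rpl36 from -0.025 to 0.25. Between the ages in CTL, Rplp0 was -0.011 with the covariate and -0.028 without the 2 mice (1 mouse left out: -0.041 to 0.26), and Rplp1 -0.15 without the 2 mice (-0.16 to 0.46). In CKO, Rpl36 was -0.020 without the 2 mice (-0.089 to 0.12).

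The share of counts on members in young CTL mice was 5.40% with A and 4.89% with B libraries, 5.36% without the 10 most abundant genes in the total and 5.44% with the ribosomal proteins outside the name rule. In 1-year CKO mice the last 2 were 3.88% and 3.97%. The median level per kilobase was 509 CPM by the longest transcript and 599 by the principal one (chosen after seeing the data). With 4 or 5 mice a group and a median SE of 0.14 in young mice, small differences of single members were not detectable.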

Other observations

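Other genes of the translation machinery also differed between 1-year and young HSCs. The elongation factor gene Eef2, whose mRNA begins with a TOP tract, rose by a log2 fold change of 1.17 (SE 0.23, edgeR adjusted p = 0.00298) in CTL and 0.92 (SE 0.22, edgeR adjusted p = 0.00769) in CKO. Btf3 and Naca, which form the complex that binds nascent chains at the tunnel exit, fell by 1.00 and by 0.83 in CTL and by 1.03 and by 0.87 in CKO (edgeR adjusted p between 0.000559 and 0.00866). Eif3e fell by 0.72 and by 1.11. Of the 17 TOP mRNAs outside the ribosomal proteins, 3 rose and 3 fell in CTL, and 1 rose and 3 fell in CKO. Of all genes, 6.70% rose and 8.07% fell in CTL, and 7.21% rose and 9.34% fell in CKO.

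Of 43 ribosome biogenesis factors, 7 fell and 3 rose in CTL, and 10 fell and 3 rose in CKO (beside the same shares of all genes), with medians of -0.18 and -0.16. Brix1, needed for 60S assembly, had the lowest value in both, -1.09 and -1.24. Rpl36al, a copy of Rpl36a, fell by 1.00 in CTL and by 1.14 in CKO. Age cannot be told apart from the sample set here, as for the members.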
